A study of Mus musculus with 48 samples.

Results

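The genes described here are 30 interferon and antigen presentation genes in a fixed list. Membership was by name and not by a cut on any measured value, though the list was drawn up with earlier results of these data known. All 30 were found among the 55487 genes of the count tables, and 29 had enough counts to be tested, the exception being Mx1. They comprise 4 transcription factors, 10 antiviral effectors of the IFIT, OAS, MX and related families, 3 IFITM genes, 2 genes of the ISG15 pathway, 5 other interferon-induced genes and 6 genes of antigen presentation on MHC class I. RNA was sequenced from cells sorted from the limbs of C57BL/6 mice at postnatal day 3 as skeletal stem cells (SSC), the precursors named pBCSP, or the bone, cartilage and stromal progenitors (BCSP) that follow them. KO cells came from Ptipf/f;Col2a1-cre mice, in which Cre recombinase is driven by the control region of the cartilage collagen gene Col2a1. WT cells came from Ptipf/f mice, so the floxed Ptip alleles were shared by both genotypes and only KO mice carried Cre. Each of the 6 groups had 2 RNA libraries, and the same groups had lists of H3K4me3, H3K4me1 and H3K27ac peaks from chromatin immunoprecipitation. The labels do not tie the libraries of a group to separate animals. A p-value therefore compares a difference with the variation among these libraries, and that variation may be technical.

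The floxed gene, Ptip or Paxip1, codes for a subunit of enzyme complexes that methylate histone H3 at lysine 4. Interferons bind receptors coupled to JAK kinases, which phosphorylate STAT proteins. A complex that holds STAT2 and IRF9 binds the interferon-stimulated response element (ISRE) of target genes, and the gamma-activated site (GAS) is another element of genes that respond to interferons. Many target genes also have a low tonic level in uninfected cells. Their products block viral entry, replication or translation, or load peptides onto MHC class I molecules for display to T cells.

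Part of the members held promoter elements of the interferon response. The choice by name used no sequence. It was a choice of interferon and antigen presentation genes, so the shares that follow are not independent of it. RefSeq promoter windows of GRCm38.p6, running from 250 bases before to 50 bases after a start, were at hand for 25 members. The ISRE core, taken as GAAA, any 2 bases and GAAA again and searched on both strands, was found in 12 of these 25 members (48.0%), against 3.94% of all genes with a window. The GAS core, TTCNNNGAA on both strands, was found in 7 of 25 members (28.0%), against 8.92% of all genes. The motifs overlapped in 2 member windows. A match is a description of letters and not of binding. Below are 6 windows, 1 from each role, picked because they hold an ISRE core. They show the element of the 12 members that had it, and not of all 25. Each is printed 5′ to 3′ on the gene's own strand, with capitals marking the ISRE core or its reverse complement.
Stat2 (chr10:128270248-128270547, plus strand): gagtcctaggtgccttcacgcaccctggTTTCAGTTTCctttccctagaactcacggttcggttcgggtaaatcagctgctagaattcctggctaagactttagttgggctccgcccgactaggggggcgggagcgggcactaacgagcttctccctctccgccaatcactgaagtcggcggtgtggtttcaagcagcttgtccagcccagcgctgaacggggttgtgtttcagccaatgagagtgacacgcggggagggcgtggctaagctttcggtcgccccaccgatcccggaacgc
Bst2 (chr8:71537423-71537722, minus strand): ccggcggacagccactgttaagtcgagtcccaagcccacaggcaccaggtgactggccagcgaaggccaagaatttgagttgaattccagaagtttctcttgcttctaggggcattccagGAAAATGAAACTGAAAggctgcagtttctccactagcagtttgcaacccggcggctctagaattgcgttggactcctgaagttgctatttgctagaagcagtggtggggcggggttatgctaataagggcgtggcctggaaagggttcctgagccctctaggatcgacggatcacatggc
Ifitm3 (chr7:141010695-141010994, minus strand): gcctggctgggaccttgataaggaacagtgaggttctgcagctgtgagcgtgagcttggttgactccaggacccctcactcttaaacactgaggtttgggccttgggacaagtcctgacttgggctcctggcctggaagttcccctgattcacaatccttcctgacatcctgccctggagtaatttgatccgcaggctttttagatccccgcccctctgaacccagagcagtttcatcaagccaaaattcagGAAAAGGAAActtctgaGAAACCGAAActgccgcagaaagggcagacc
Isg15 (chr4:156200769-156201068, minus strand): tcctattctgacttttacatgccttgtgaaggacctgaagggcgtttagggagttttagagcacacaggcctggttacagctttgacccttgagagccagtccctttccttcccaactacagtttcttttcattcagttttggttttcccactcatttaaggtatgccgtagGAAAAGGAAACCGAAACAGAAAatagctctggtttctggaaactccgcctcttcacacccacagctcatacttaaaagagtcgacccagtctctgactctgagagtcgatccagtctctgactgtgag
Gbp2 (chr3:142620413-142620712, plus strand): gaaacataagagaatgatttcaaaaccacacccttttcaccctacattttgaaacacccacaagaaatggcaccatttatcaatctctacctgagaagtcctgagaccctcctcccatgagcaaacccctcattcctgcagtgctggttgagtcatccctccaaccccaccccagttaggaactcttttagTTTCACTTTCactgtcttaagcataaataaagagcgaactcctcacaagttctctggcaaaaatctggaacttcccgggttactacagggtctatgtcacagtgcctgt
B2m (chr2:122147437-122147736, plus strand): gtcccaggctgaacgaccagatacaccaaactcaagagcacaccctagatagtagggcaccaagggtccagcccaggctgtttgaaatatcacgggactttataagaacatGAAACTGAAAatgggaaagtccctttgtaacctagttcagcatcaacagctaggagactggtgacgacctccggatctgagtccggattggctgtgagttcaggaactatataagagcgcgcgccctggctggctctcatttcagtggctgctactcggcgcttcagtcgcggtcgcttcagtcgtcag

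The arrangement of the element differed among these windows. Isg15, which encodes a ubiquitin-like protein, had 3 overlapping cores, beginning 78, 72 and 66 bases before its start. Bst2, which tethers budding virions to the cell surface, had 2 overlapping cores beginning 130 and 124 bases before the start. In B2m, the invariant light chain of MHC class I, the single core began 139 bases before the start, and in Stat2 it began 222 bases before it. In Ifitm3 both cores lay just after the start. Psmb9 and Tap1, an immunoproteasome subunit and a peptide transporter subunit, start 226 bases apart on opposite strands, so their windows overlap. Neither held an ISRE or GAS core.

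The libraries differed in quality in ways that touch these genes. Totals ranged from 15495915 to 22670899 counts. Paxip1 was at 0 to 3.48 CPM (counts scaled to the library size) in the 6 KO libraries, against 7.25 to 14.6 CPM in the 6 WT libraries, a log2 difference of -4.52 ± 0.76 (SE; edgeR adjusted p = 0.0396). The median difference between the 2 replicates of a group was 1.3 log2 units in SSC KO, 0.67 in pBCSP KO and 0.63 in BCSP KO, against 0.44, 0.4 and 0.35 in the matching WT groups. Reads fell on 13987 genes in SSC KO replicate 2, against 20965 to 23831 genes in the other 11 libraries. Genes of the skeletal lineage summed to 37000 to 69300 CPM in the KO libraries and 51200 to 74900 CPM in the WT libraries. Whether fewer cells of a type or less RNA per cell set a level cannot be told apart in such bulk libraries. CPM were scaled by library but not by gene length, so a level is compared only with the same gene's level elsewhere.

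**Figure D1:**
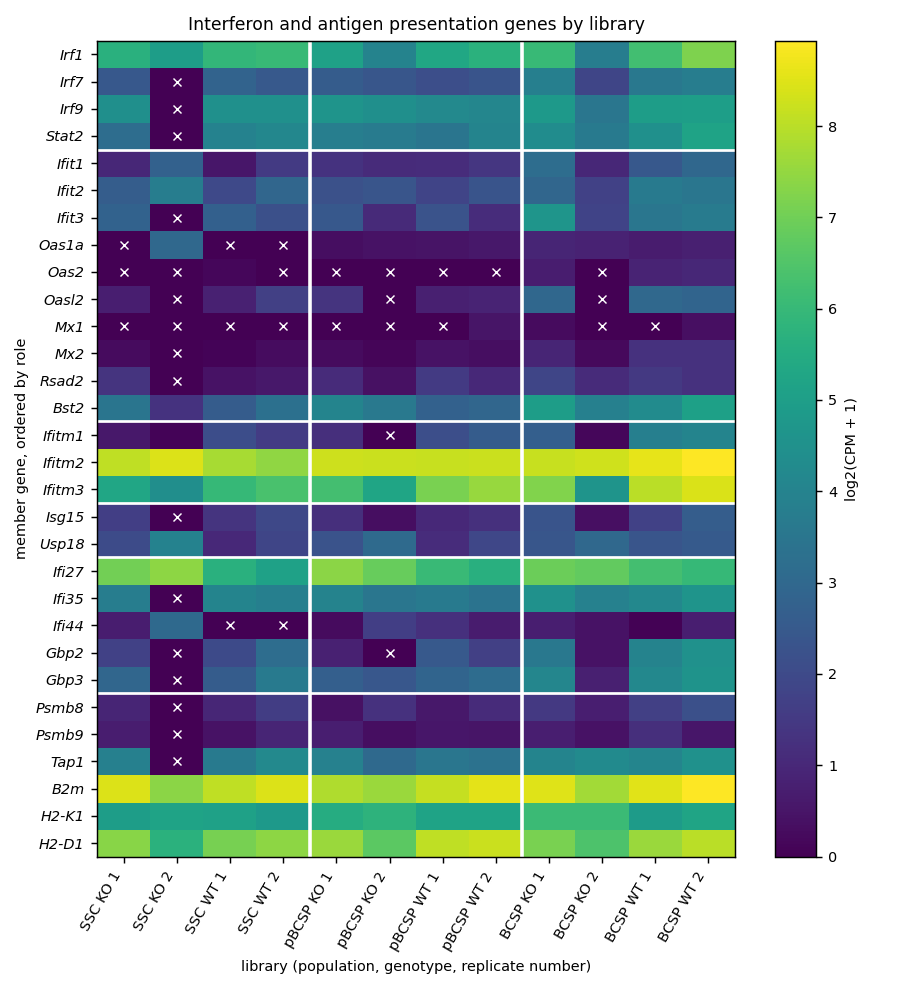
Level of each of the 30 members (rows, ordered by role, white lines between roles) in the 12 RNA libraries (columns), as log2(CPM + 1); crosses mark a count of 0. The column of SSC KO replicate 2 holds 16 crosses, and the BCSP columns apart from KO replicate 2 are the brightest for most antiviral genes.

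In WT cells the antiviral genes stood higher in BCSP than in the other 2 populations. Both WT BCSP libraries lay above all 4 other WT libraries for 20 of 29 members, whereas 12.7% of all 17494 tested genes did so. Against WT SSC, both WT BCSP libraries were higher for 25 of 29 members (background 20.8% of genes) and lower for 0 (background 22.6%). Against WT pBCSP they were higher for 23 of 29 members (background 22.2%) and lower for 1, H2-D1 (background 23.1%). WT pBCSP and WT SSC showed no such one-sided order, since pBCSP was higher for 9 members (18.8% of genes) and lower for 6 (16.6% of genes). The fitted difference was above 0 for 29 of 29 members in BCSP minus SSC (45.3% of genes), 26 in BCSP minus pBCSP (47.0%) and 13 in pBCSP minus SSC (51.9%). The median log2 difference over the members was 1.18 for WT BCSP minus WT SSC and 1.19 for WT BCSP minus WT pBCSP, against -0.05 and -0.03 over all genes. With genes that had no read in a whole group set at 3 counts per library, these medians were 1.15 and 1.19.

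The order was not equally common in all roles. All 4 transcription factors, all 3 IFITM genes and 8 of 9 tested antiviral effectors had their 2 highest WT values in BCSP. The 8 effectors were Ifit1, Ifit2, Ifit3, Oas1a, Oas2, Oasl2, Mx2 and Bst2, of which RefSeq lists Mx2 as a transcribed pseudogene. The other one was Rsad2, which encodes viperin. Of the 5 other interferon-induced genes 3 did so, Ifi35, Gbp2 and Gbp3, and of the 2 ISG15 pathway genes 1 did so, Usp18. Of the 6 antigen presentation genes, 1 did so, Psmb8, a catalytic subunit of the immunoproteasome, which is close to the 12.7% of all genes.

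Irf1, a transcription factor induced by interferon gamma, had 73.2 and 146 CPM in WT BCSP, against 39.2 and 50.7 CPM in WT pBCSP and 59.8 and 64.2 CPM in WT SSC. Bst2 had 18.9 and 32.5 CPM in WT BCSP, against 5.79 and 6.64 CPM in WT pBCSP and 5.07 and 8.72 CPM in WT SSC. Ifitm2, which restricts virus entry at endosomal membranes, had 385 and 488 CPM in WT BCSP, against 291 and 296 CPM in WT pBCSP and 219 and 175 CPM in WT SSC. In each of these genes the WT BCSP values stood clear of both other populations. Ifitm3, a close relative of Ifitm2 that is named here after its values were seen, had 257 and 347 CPM in WT BCSP, 140 and 188 CPM in WT pBCSP and 62.8 and 82.0 CPM in WT SSC. Ifitm1 had 13.5 and 15.3 CPM in WT BCSP, against 3.47 and 5.13 CPM in WT pBCSP and 3.28 and 2.03 CPM in WT SSC. For Ifitm3 the 3 WT populations did not overlap and were ordered SSC, pBCSP, BCSP. For Ifitm1 the WT pBCSP values were also both above the WT SSC values. Oas2, which makes the second messenger that activates RNase L, had 0.838 and 1.01 CPM in WT BCSP. It had no read in either WT pBCSP library and 0.115 and 0 CPM in WT SSC. B2m had 371 and 485 CPM in WT BCSP, against 281 and 375 CPM in WT pBCSP and 271 and 352 CPM in WT SSC. Its WT BCSP values lay above those of WT SSC and overlapped those of WT pBCSP. Psmb8 had 2.27 and 3.54 CPM in WT BCSP, against 0.490 and 1.13 CPM in WT pBCSP and 0.922 and 2.09 CPM in WT SSC.

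In the fit of all 12 libraries by edgeR's quasi-likelihood test, no gene at all passed an adjusted p of 0.05 between WT populations (background 0.0%), and members at an unadjusted p under 0.05 numbered 5 of 29 for BCSP minus SSC (3.48% of genes), 4 for BCSP minus pBCSP (2.62%) and 2 for pBCSP minus SSC (1.89%). DESeq2 called 1 member for BCSP minus SSC, Ifitm2 (0.44% of genes). That fit shares 1 estimate of spread between the WT libraries and the more variable KO libraries. A fit of the 6 WT libraries alone, chosen after seeing the data, called 4 members higher in BCSP than in SSC (background 2.85%) and 0 lower. These were Ifitm3 (log2 difference 2.09 ± 0.25, adjusted p = 0.00415), Ifitm1 (2.46 ± 0.39, adjusted p = 0.0129), Ifitm2 (1.18 ± 0.2, adjusted p = 0.0185) and Bst2 (1.93 ± 0.38, adjusted p = 0.0359). The same fit called 3 members higher in BCSP than in pBCSP (background 1.67%) and 0 lower. They were Bst2 (2.08 ± 0.39, adjusted p = 0.0391), Oasl2 (3.13 ± 0.59, adjusted p = 0.04) and Irf7 (1.69 ± 0.33, adjusted p = 0.0451). Oasl2, an oligoadenylate synthetase-like gene, had 7.20 and 6.35 CPM in WT BCSP, against 0.712 and 0.864 CPM in WT pBCSP and 0.749 and 2.27 CPM in WT SSC. Irf7, whose product amplifies type I interferon transcription, had 11 and 12.8 CPM in WT BCSP, against 3.47 and 4.05 CPM in WT pBCSP and 6.11 and 4.66 CPM in WT SSC. WT libraries with the same replicate number deviated together, with correlations of 0.33, 0.28 and 0.31 between populations across genes. With a replicate block, also added after seeing the data, the WT fit called 18 members higher in BCSP than in SSC (background 7.65%), 19 higher than in pBCSP (background 7.48%) and 0 lower in either (5.32% and 3.96%). Oasl2 and Irf7 are named after their values were seen, and neither overlapped between WT BCSP and the other populations.

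Markers of other cells moved along the same populations. Skeletal muscle genes summed to 424 and 632 CPM in WT BCSP, against 102 and 91.1 CPM in WT pBCSP and 82.5 and 38.6 CPM in WT SSC. All 7 tested muscle markers were above 0 in both BCSP contrasts. Leukocyte genes summed to 14.7 and 20.5 CPM in WT BCSP, below the 25.9 and 24.3 CPM of WT pBCSP and above the 9.28 and 9.79 CPM of WT SSC. Of 9 tested leukocyte markers, 1 was higher in WT BCSP than in WT pBCSP and 9 were higher than in WT SSC. Of 12 leukocyte markers listed, 0 and 1 were at 0 in the WT BCSP libraries, that 1 being Ptprc, the pan-leukocyte antigen CD45. Endothelial genes summed to 45.1 and 46.3 CPM in WT BCSP, against 70.4 and 69.2 CPM in WT pBCSP and 12.7 and 16.1 CPM in WT SSC. Erythroid genes summed to 22.3 and 70.7 CPM in WT BCSP, 38.4 and 260 CPM in WT pBCSP and 99.3 and 48.2 CPM in WT SSC. Leukocyte and endothelial sums in WT BCSP were thus below those of WT pBCSP and above those of WT SSC. Most members were higher in WT BCSP than in either. The part of muscle, leukocyte, endothelial or erythroid RNA in the BCSP levels was not tested.

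**Figure D2:**
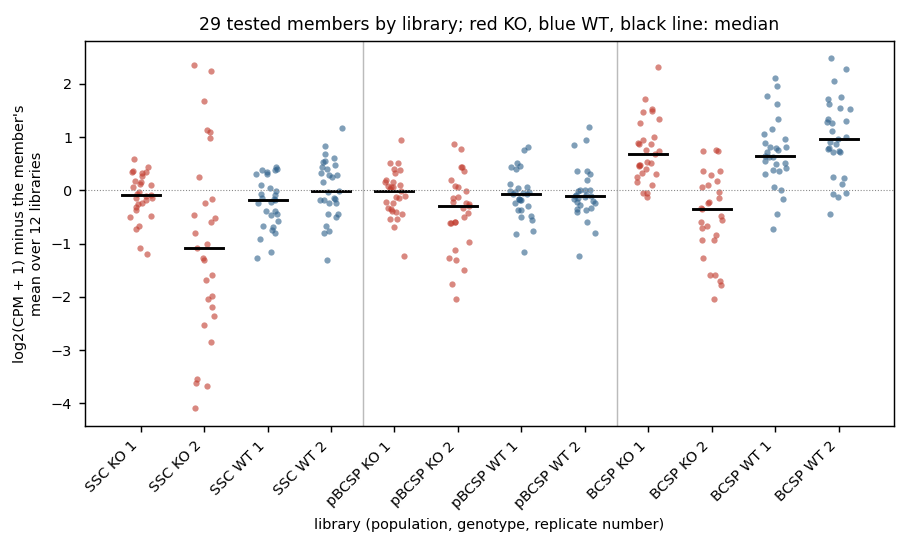
Each point is 1 of the 29 tested members in 1 library, as its log2(CPM + 1) minus that member's mean over the 12 libraries; red is KO, blue is WT and black lines are medians. Medians were 0.65 and 0.97 in the WT BCSP libraries and 0.69 in BCSP KO replicate 1, and between -0.3 and -0.01 in the pBCSP libraries.

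In KO cells the means leaned the same way, but the replicates of a population seldom stood clear of another population. The KO BCSP mean was above the KO SSC mean for 22 of 29 members (57.8% of genes) and above the KO pBCSP mean for 24 (49.2% of genes). In the matching WT comparisons it was 29 members (45.3% of genes) and 26 (47.0%). The median member difference on the log2(CPM + 1) scale was 0.65 for KO BCSP minus KO SSC and 0.36 for KO BCSP minus KO pBCSP, against 0.86 and 0.93 in WT. Over all genes these medians were 0.15 and 0.0 in KO, against -0.03 and -0.02 in WT. KO pBCSP was above KO SSC by mean for 15 members (57.1% of genes). The KO SSC means include SSC KO replicate 2, which had no read for 16 of the 30 members. Both KO BCSP libraries were above both KO SSC libraries for 5 of 29 members (background 17.3% of genes) and below them for 1, Ifi27 (background 8.49%). Against KO pBCSP, KO BCSP was higher for 4 members (background 11.9%) and lower for 0 (background 10.6%). KO pBCSP was above KO SSC for 3 members (background 16.8%) and below it for 1, Ifit2 (background 7.99%). The 2 KO BCSP libraries parted from each other. The median member deviated by 0.69 log2 units from its own mean in BCSP KO replicate 1, close to the WT BCSP libraries, and by -0.35 in replicate 2. Ifit3, named after its values were seen, had 24.5 and 2.49 CPM in the KO BCSP libraries, against 10.4 and 12.1 CPM in WT BCSP. Gbp2, a guanylate-binding GTPase also named after its values were seen, had 10.8 and 0.365 CPM in KO BCSP, against 15.0 and 21.9 CPM in WT BCSP. The muscle sum parted likewise, at 475 and 82.5 CPM in KO BCSP, and its part in the member levels was not tested. An F test asked whether the KO effect differed between populations, and so whether their order differed between genotypes. It called 0 members (background 0.0%) and gave 3 an unadjusted p under 0.05 (background 1.37%), Oas1a, Ifitm2 and Ifi44. Oas1a and Ifi44 had no read in SSC WT. In SSC KO they had 128 and 130 counts in replicate 2, against 0 and 9 in replicate 1.

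Replicate 2 stood below replicate 1 for most members in every KO group. This was so for 20 of 29 members in SSC KO, 22 in pBCSP KO and 25 in BCSP KO, against 8, 10 and 6 in the matching WT groups. Over all genes the share was 61.6% in SSC KO, 51.3% in pBCSP KO and 52.2% in BCSP KO, and 49.5% to 50.5% in the WT groups. Of the KO counts, that of SSC KO lay nearest its share over all genes. Relative to the WT mean of the same population, on the log2(CPM + 1) scale, the median member was at 0.0 and -1.26 in the 2 SSC KO libraries, 0.04 and -0.18 in pBCSP KO, and -0.16 and -1.2 in BCSP KO. Over all genes these medians were -0.04 and -0.37 in SSC KO, -0.03 and -0.04 in pBCSP KO, and -0.01 and -0.06 in BCSP KO. For the median member, the second KO replicate thus lay far below the WT mean in SSC and BCSP. In SSC the median gene of that library was lower as well. In pBCSP the distance of the second replicate was about that of BCSP KO replicate 1.

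SSC KO replicate 2 had no read for 16 of the 30 members. Of the 23 members with a read in all 11 other libraries, 12 were at 0 there (52.2%), against 19.5% of 15090 such genes. Among members with a median level of 10 to 50 CPM, 4 of 6 were at 0, against 4.88% of genes at that level. They were Irf9, Stat2, Ifi35 and Tap1. At 1 to 10 CPM 7 of 11 members were at 0, against 34.1% of genes. At 50 to 1000 CPM it was 0 of 6 members, against 0.28% of genes. A count of 0 in this library allows up to 0.166 CPM. Irf9, the DNA-binding part of the interferon-stimulated factor, had 20.9 CPM in SSC KO replicate 1, against 21.3 and 21.4 CPM in SSC WT. Stat2, its transactivating part, had 8.04 CPM in SSC KO replicate 1, against 14.6 and 16.5 CPM in SSC WT. Other members had their highest values in that same library. Oas1a had 7.10 CPM there and no read in the other 3 SSC libraries. Ifi44 had 7.21 CPM there, 0.624 CPM in SSC KO replicate 1 and no read in SSC WT. Usp18, which removes ISG15 from proteins and restrains the type I receptor, had 14.7 CPM there.

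On average over the 3 populations, 1 of 29 members was higher in KO than in WT at an adjusted p under 0.05 by edgeR, beside 0.966% of all genes, and 0 were lower, beside 0.206% of all genes. The member was Ifi27, which encodes a small interferon-induced membrane protein and lies at chr12:103434189-103440245 in GRCm38.p6. Ifi27 had 129 and 169 CPM in SSC KO, against 50.2 and 34 CPM in SSC WT. It had 165 and 116 CPM in pBCSP KO, against 65.5 and 48.5 CPM in pBCSP WT. It had 122 and 110 CPM in BCSP KO, against 76.1 and 62.8 CPM in BCSP WT. All 6 KO libraries were above all 6 WT libraries, as for 3.08% of tested genes, and no member lay wholly below (1.98% of genes). The average log2 difference was 1.29 ± 0.18 (SE, 6 libraries per genotype, adjusted p = 0.0277), a 2.45-fold difference. In single populations it was 1.82 in SSC, 1.30 in pBCSP and 0.74 in BCSP, with adjusted p = 0.524, 0.74 and 0.775 by edgeR. The difference among these 3 effects did not pass the F test (unadjusted p = 0.0945, edgeR adjusted p = 1). The adjusted p of Ifi27 rose above 0.05 when any 1 of 9 libraries was left out, which were all 6 WT libraries, both pBCSP KO libraries and BCSP KO replicate 2, at 0.0527 to 0.194. The log2 difference then stayed between 1.2 and 1.38. The adjusted p was also 0.0584 by limma-voom with a correlation between libraries, 0.0731 by edgeR without the SSC libraries and 0.591 by edgeR on counts summed over populations.

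**Figure D3:**
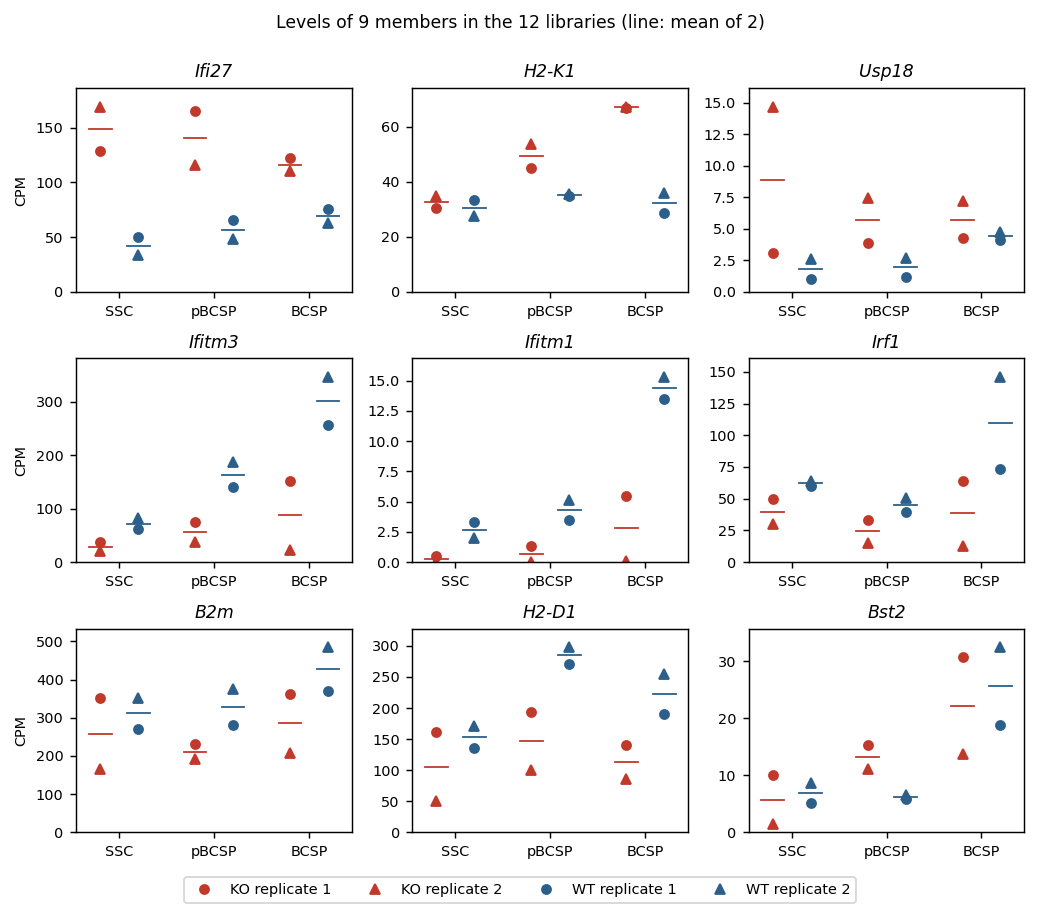
CPM of 9 members in every RNA library, with KO (red) left of WT (blue) in each population, circles for replicate 1, triangles for replicate 2 and a line at the mean of 2. The KO values of Ifi27 are all above its WT values, the WT values of Ifitm3 are lowest in SSC and highest in BCSP, and Ifitm3, Ifitm1 and Irf1 KO values lie below WT in each population.

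The other members that differed most did so in both directions without passing the adjusted threshold. Over the 29 members, 9 had an average log2 difference above 0, against 44.7% of all genes, and 9 had an unadjusted p under 0.05, against 19.6% of all genes. The median was -0.5, or -0.45 with genes that had no read in a whole group set at 3 counts per library, and -0.09 over all genes. It was -2.23 without SSC KO replicate 1, -0.24 without SSC KO replicate 2, -1.22 by limma-voom and -0.78 with a replicate block, where the median gene was at -0.37, -0.06, -0.22 and -0.13. Without SSC KO replicate 1 the edgeR fit called 18 members, 5 higher and 13 lower, alongside 32.0% of all genes. That fit assumes the lone SSC KO replicate 2 to vary like the other groups. Leaving out SSC KO replicate 2 gave 1 member and leaving out BCSP KO replicate 1 gave 2, beside 1.29% and 1.82% of genes. Leaving out any other library gave 0 members, with 0.151% of genes called without pBCSP KO replicate 1 and no gene called in the other 8 fits. DESeq2 called 6 members (9.68% of genes), Usp18, Ifi27, Ifi44 and H2-K1 as higher and Ifitm1 and Ifitm3 as lower. Per population, 0 members were called by edgeR in SSC, pBCSP or BCSP (background 0.0% in each). Members at an unadjusted p under 0.05 numbered 5 in SSC, 1 in pBCSP and 3 in BCSP, beside 9.39%, 6.27% and 6.26% of all genes. By value alone, both KO libraries lay below both WT libraries for 14 of 29 members in BCSP (background 26.4%), 9 in pBCSP (24%) and 10 in SSC (25.8%). They lay above both for 3 members in BCSP (background 24.2%), 6 in pBCSP (21.2%) and 4 in SSC (13.7%). The BCSP counts were the farthest from their background shares. Fitted differences above 0 numbered 7 of 29 members in BCSP, 15 in pBCSP and 9 in SSC, beside 49.6%, 48.4% and 40.1% of all genes. DESeq2 called 3 members in SSC (0.995% of genes), Oas1a, Ifi27 and Ifi44, and 1 in BCSP (0.703% of genes), H2-K1.

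Among the transcription factors, Irf1 had the largest average difference. It had 49.4 and 30.4 CPM in SSC KO, against 59.8 and 64.2 CPM in SSC WT. In pBCSP it had 33.4 and 15.1 CPM in KO, against 39.2 and 50.7 CPM in WT. In BCSP it had 64.0 and 12.9 CPM in KO, against 73.2 and 146 CPM in WT. Every KO library was below both WT libraries of its population. The average log2 difference was -1.01 ± 0.4 (adjusted p = 0.207). Irf7, Irf9 and Stat2 also had average differences below 0, with KO values both above WT in pBCSP for Irf7 and Irf9.

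Of the antiviral effectors, 4 of 9 had an average difference above 0. Bst2 had 9.98 and 1.5 CPM in SSC KO, against 5.07 and 8.72 CPM in SSC WT. It had 15.4 and 11.1 CPM in pBCSP KO, against 5.79 and 6.64 CPM in pBCSP WT, and 30.7 and 13.7 CPM in BCSP KO, against 18.9 and 32.5 CPM in BCSP WT. The genotypes were apart in pBCSP and overlapped in SSC and BCSP, and the average log2 difference was 0.2 ± 0.45 (adjusted p = 0.833), with its sign turning when a library was left out. Oas1a, which synthesises oligoadenylate on sensing double-stranded RNA, had 0 and 7.10 CPM in SSC KO and no read in SSC WT. In pBCSP it had 0.252 and 0.362 CPM in KO, against 0.401 and 0.486 CPM in WT. In BCSP it had 0.896 and 0.791 CPM in KO, against 0.592 and 0.731 CPM in WT. Its average difference rested on 1 library and had an adjusted p of 0.228. Oas2 had no read in SSC KO, pBCSP KO or pBCSP WT, and 0.632 and 0 CPM in BCSP KO, against 0.838 and 1.01 CPM in BCSP WT. RefSeq lists both Mx1, a dynamin-like GTPase, and Mx2 as transcribed pseudogenes in this genome. Mx1 had reads in 3 libraries. These were BCSP KO replicate 1 at 0.211 CPM, BCSP WT replicate 2 at 0.281 CPM and pBCSP WT replicate 2 at 0.432 CPM.

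The 3 IFITM genes differed in direction. Ifitm3 had 38.4 and 20.1 CPM in SSC KO, against 62.8 and 82.0 CPM in SSC WT. In pBCSP it had 75.1 and 37.3 CPM in KO, against 140 and 188 CPM in WT. In BCSP it had 152 and 23.4 CPM in KO, against 257 and 347 CPM in WT. No KO library reached the WT libraries of its population, and the average log2 difference was -1.55 ± 0.42 (adjusted p = 0.103 by edgeR). Ifitm1 had 0.485 and 0.0554 CPM in SSC KO, against 3.28 and 2.03 CPM in SSC WT. It had 1.32 and 0 CPM in pBCSP KO, against 3.47 and 5.13 CPM in pBCSP WT, and 5.48 and 0.122 CPM in BCSP KO, against 13.5 and 15.3 CPM in BCSP WT. The Ifitm1 values were again below WT in each population, at -2.79 ± 1.03 log2 units on average (adjusted p = 0.187). Ifitm2 had 269 and 354 CPM in SSC KO, against 219 and 175 CPM in SSC WT. It had 302 and 294 CPM in pBCSP KO, against 291 and 296 CPM in pBCSP WT, and 288 and 309 CPM in BCSP KO, against 385 and 488 CPM in BCSP WT. Ifitm2 KO libraries were thus above WT in SSC, mixed in pBCSP and below WT in BCSP. The F test across populations gave it an unadjusted p of 0.0205 and an edgeR adjusted p of 1. The 3 genes lie in 1 cluster on chromosome 7 and resemble each other, so their counts may have exchanged or lost shared reads.

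In the ISG15 pathway, Usp18 had 3.12 and 14.7 CPM in SSC KO, against 1.04 and 2.63 CPM in SSC WT. It had 3.91 and 7.46 CPM in pBCSP KO, against 1.20 and 2.70 CPM in pBCSP WT, and 4.27 and 7.18 CPM in BCSP KO, against 4.14 and 4.78 CPM in BCSP WT. The KO values were above WT in SSC and pBCSP and overlapped in BCSP, with an average log2 difference of 1.39 ± 0.5 (adjusted p = 0.18). Isg15 itself stayed between 0 and 3.95 CPM in KO libraries and between 1.02 and 5.17 CPM in WT libraries.

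Ifi44 was the member of the other interferon-induced genes with the largest fitted average difference, which rested on libraries with no read. It had 0.624 and 7.21 CPM in SSC KO and no read in SSC WT. It had 0.189 and 2.17 CPM in pBCSP KO, against 1.34 and 0.594 CPM in pBCSP WT, and 0.685 and 0.365 CPM in BCSP KO, against 0.0493 and 0.674 CPM in BCSP WT. The genotypes overlapped outside SSC, and the adjusted p of the average was 0.167. Gbp2 had the largest difference in the other direction among these genes, -2.42 ± 1.12 log2 units (adjusted p = 0.273), and was at 0 in 2 KO libraries.

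The antigen presentation genes divided between the 2 classical class I heavy chains of this strain. H2-K1, named after its values were seen, had 30.4 and 34.9 CPM in SSC KO, against 33.4 and 27.5 CPM in SSC WT. It had 44.9 and 53.5 CPM in pBCSP KO, against 34.9 and 35.7 CPM in pBCSP WT, and 66.9 and 67.2 CPM in BCSP KO, against 28.7 and 36.0 CPM in BCSP WT. Its KO values were lowest in SSC and highest in BCSP, whereas its WT values stayed between 27.5 and 36.0 CPM. The average log2 difference was 0.54 ± 0.15 (adjusted p = 0.11) and that in BCSP was 1.05 ± 0.27 (adjusted p = 0.514). H2-D1, also named after its values were seen, had 161 and 50.7 CPM in SSC KO, against 135 and 171 CPM in SSC WT. It had 194 and 101 CPM in pBCSP KO, against 271 and 298 CPM in pBCSP WT, and 140 and 85.7 CPM in BCSP KO, against 190 and 254 CPM in BCSP WT. H2-D1 was below WT in pBCSP and BCSP and overlapped it in SSC, at -0.82 ± 0.3 log2 units on average (adjusted p = 0.187). The heavy-chain genes share sequence with each other and with the H2-Q genes, so the split of reads between them is uncertain. B2m had 351 and 165 CPM in SSC KO, against 271 and 352 CPM in SSC WT. It had 231 and 191 CPM in pBCSP KO, against 281 and 375 CPM in pBCSP WT, and 363 and 208 CPM in BCSP KO, against 371 and 485 CPM in BCSP WT. Its average log2 difference was -0.5 ± 0.23 (adjusted p = 0.279). Psmb8 had the largest average difference of the role by size, -0.96 ± 0.83 log2 units (adjusted p = 0.548). It had 0.901 and 0 CPM in SSC KO, against 0.922 and 2.09 CPM in SSC WT. It had 0.315 and 1.40 CPM in pBCSP KO, against 0.490 and 1.13 CPM in pBCSP WT, and 1.79 and 0.669 CPM in BCSP KO, against 2.27 and 3.54 CPM in BCSP WT.

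**Figure D4:**
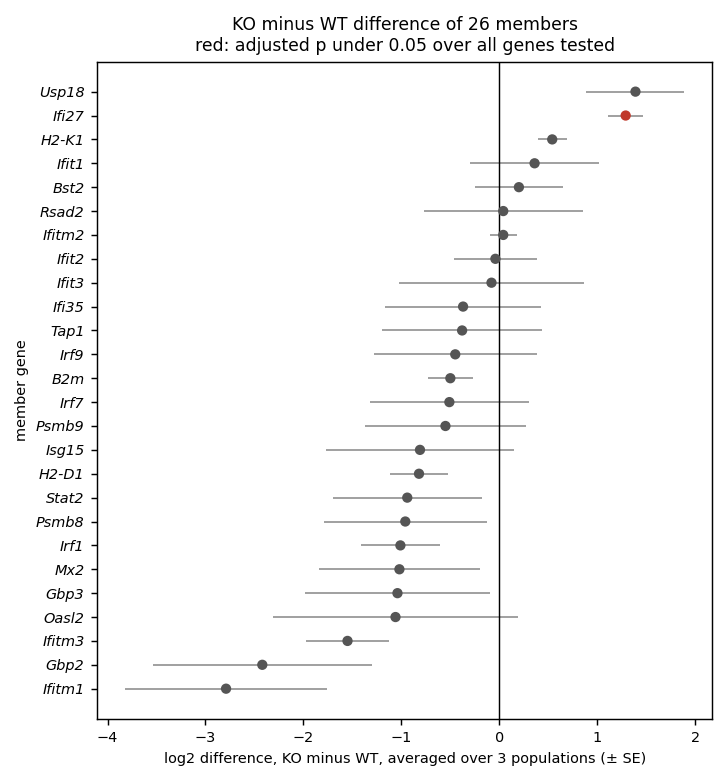
Log2 difference of KO minus WT averaged over the 3 populations, with its SE, for 26 tested members; Oas1a, Oas2 and Ifi44, which had no read in a whole group, are left out. Ifi27 at 1.29 is the only point past an adjusted p of 0.05 (red), and Usp18, at 1.39, has a wider error.

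Genes of the same pathways outside the members gave few calls. Over all genes, 44.7% had an average difference above 0 and 19.6% had an unadjusted p under 0.05. By edgeR, 0.966% of all genes were called higher and 0.206% lower. The lists below are to be read beside these shares. Of 14 tested further class I presentation genes, 11 had an average difference above 0 and 5 had an unadjusted p under 0.05. Of these 14, 1 was called higher and 0 were called lower. The called gene was Calr, a chaperone that helps fold class I heavy chains. Calr had 297 to 373 CPM in the KO libraries and 166 to 223 CPM in the WT libraries. All its KO values lay above all its WT values, as for 3.08% of tested genes. Its average log2 difference was 0.79 ± 0.13 (adjusted p = 0.0406). Of 12 receptor and JAK-STAT genes, 4 were above 0 and none was called by edgeR, with 2 at an unadjusted p under 0.05. Ifngr1, a chain of the interferon gamma receptor, had the smallest p of that list. It had 101 to 124 CPM in KO libraries and 114 to 244 CPM in WT libraries, a log2 difference of -0.6 ± 0.13 (adjusted p = 0.0581). Of 12 nucleic acid sensing genes, 3 were above 0, and Tbk1, the kinase that activates interferon regulatory factors, had the smallest p at -0.74 ± 0.23 log2 units (adjusted p = 0.131). Of 18 other interferon-stimulated genes, 4 were above 0, and Ddx60 had the smallest adjusted p at 0.171. Of 8 other guanylate-binding and immunity-related GTPases, 0 were above 0, and Gbp9 had the smallest adjusted p at 0.153. In these 3 lists edgeR called 0 genes, with 1, 4 and 1 at an unadjusted p under 0.05, beside 19.6% of all genes. Of 3 tested class II genes, 3 were above 0. H2-Ab1, the class II beta chain, had 20.6 to 232 CPM in KO libraries and 7.15 to 48.1 CPM in WT libraries, at 2.31 ± 0.47 log2 units (adjusted p = 0.0567). Leukocyte sums were 11.9 to 33.0 CPM in KO libraries and 9.28 to 25.9 CPM in WT libraries, and 2 of 9 tested leukocyte markers were above 0 in the average comparison, with a median log2 difference of -1.72. Erythroid sums were 1.76 to 31.9 CPM in KO libraries and 22.3 to 260 CPM in WT libraries, and 0 of 7 tested erythroid markers were above 0, with a median of -2.96 and 5 at an unadjusted p under 0.05. Endothelial sums were 11.1 to 38.3 CPM in KO libraries and 12.7 to 70.4 CPM in WT libraries, and 3 of 10 tested endothelial markers were above 0, with a median of -1.36. Markers of these 3 lists thus leaned lower in KO on average, as most members did, and none was called by edgeR. In SSC alone, 5 of 10 endothelial markers were above 0, with a median of 0.21. The leukocyte and erythroid medians there were -0.18 and -2.06. Of 7 tested muscle markers, 2 were above 0 in the average comparison, with a median of -0.3 and none called. The part of any of these marker lists in the member differences was not tested. SSC KO replicate 2, with the highest leukocyte sum, had 10 of 12 leukocyte markers at 0, Ptprc among them.

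The WT order of the populations extended to related lists. WT BCSP was above WT SSC for 16 of 18 other interferon-stimulated genes, with a median log2 difference of 1.7, and for 8 of 8 further GTPases, with a median of 1.72. It was above WT pBCSP for 17 of 18 and 8 of 8, with medians of 1.64 and 2.09. Over all genes, 45.3% were above 0 for BCSP minus SSC and 47.0% for BCSP minus pBCSP. The further class I genes had medians of 0.35 and 0.2, and the class II genes -0.26 and -0.56. No gene of these lists passed the adjusted threshold of edgeR in these contrasts. Those at an unadjusted p under 0.05 for BCSP minus SSC were 4 interferon-stimulated genes and 1 GTPase, beside 3.48% of all genes.

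Histone marks were read as peaks called by the authors within 1000 bases of a RefSeq start. H3K4me3, a mark of promoters, was present at most members in both genotypes. It was found at 23 members in SSC KO and 19 in SSC WT, of 25 with a start, beside 66.5% and 65.1% of all genes. In pBCSP it was found at 22 members in KO and 21 in WT, beside 64.0% and 64.4% of genes. In BCSP it was found at 24 in KO and 24 in WT, beside 65.5% and 65.0% of genes. The members that lacked an H3K4me3 peak in some list were Ifit3, Oas1a, Oasl2, Ifitm1, Isg15 and Ifi44. Where called, their peaks had the authors' fold enrichments of 3.17 to 7.62. The H3K4me3 peak at Ifitm1 was present in the 2 BCSP lists alone, at folds of 3.99 in KO and 3.70 in WT, and the one at Isg15 was present in SSC KO and pBCSP WT. By contrast B2m had a peak in all 6 lists, with folds in SSC of 20.5 in KO and 17.7 in WT.

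H3K4me1, a mark of enhancers and promoter flanks, was found at 23 members in SSC KO and 16 in SSC WT, beside 65.1% and 48.3% of all genes. In pBCSP it was found at 24 in KO and 22 in WT, beside 67.4% and 65.7% of genes, and in BCSP at 24 in KO and 22 in WT, beside 67.4% and 63.2% of genes. The SSC difference between genotypes was in the same direction over all genes. H3K27ac, a mark of active promoters, was found at few members. In the first set it was found at 1 member in SSC KO and 1 in SSC WT (6.88% and 5.26% of genes), 4 in pBCSP KO and 3 in pBCSP WT (11.2% and 14.8%), and 5 in BCSP KO and 2 in BCSP WT (13.1% and 17.2%). Ifitm2 had such a peak in all 6 of these lists, and Irf9 in 3 of them. In the second set, 2 members had a peak in BCSP KO (14.9% of genes) and 0 in BCSP WT (0.635% of genes). In that set 0 members had one in SSC KO or SSC WT (1.74% and 0.212% of genes). The same held for pBCSP KO and pBCSP WT (1.86% and 5.77% of genes). H3K4me3 and H3K4me1 had 1 list per group, so their differences between lists have no replicate check. For H3K27ac the labels number the 2 sets as replicates, and in BCSP the KO list held more members than the WT list in both, at 5 against 2 and 2 against 0. Over all genes the BCSP KO share was below the WT share in the first set and above it in the second.

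**Figure D5:**
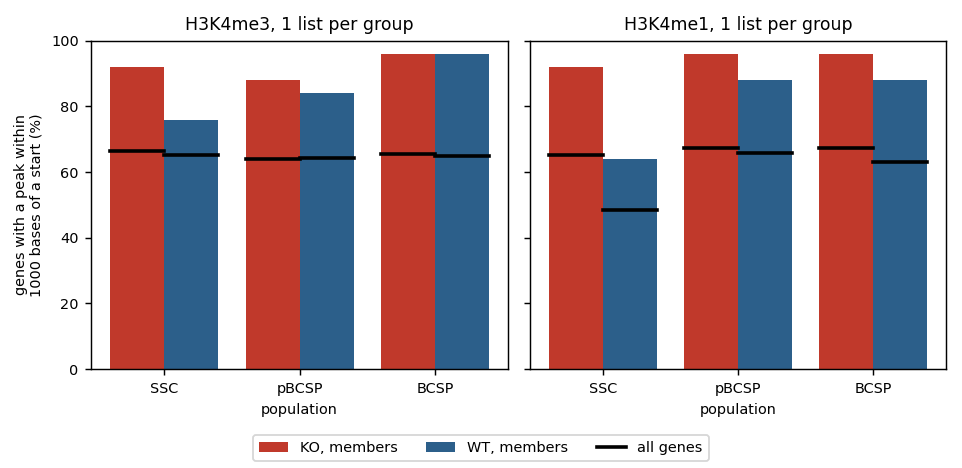
Share of the 25 members with a RefSeq start (bars, KO left of WT) and of all 17492 genes (black lines) that had a peak within 1000 bases of a start, for H3K4me3 and H3K4me1 in 1 list per group. Member shares lie above the gene shares in all 12 lists, from 64.0% to 96.0% of members.

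The 5 members with no promoter window, Oas2, Mx1, Mx2, Usp18 and Ifi27, were read over the whole gene with 1000 bases on either side, a window chosen after seeing the data. Ifi27, the member called higher in KO RNA, had an H3K4me3 peak in all 6 lists. The authors' fold enrichment there was 13.5 in SSC KO and 10.7 in SSC WT, 9.29 in pBCSP KO and 11.9 in pBCSP WT, and 11.6 in BCSP KO and 13.0 in BCSP WT. It also had an H3K4me1 peak in all 6 lists. Usp18 had an H3K4me3 peak in all 6 lists, at folds from 16.7 to 21.9, and none for H3K27ac. The peak over Ifi27 was thus called in KO and WT alike.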

How the data were processed

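The authors deposited whole-number read counts per gene for the 12 RNA libraries, not normalised. Oligo dT beads had enriched messenger RNA, per the labels' protocols, which do not say whether strand was kept. Peak lists carry the authors' fold enrichment, a ratio over background, with deposited -log10 p-values and -log10 q-values, which were used to describe or rank peaks within a list. Per the submitters' processing notes, the build was GRCm38 and the tools included MACS2 2.2.6 for peaks, featureCounts 2.0.1, Bowtie2 2.3.5.1, SAMtools 1.9 and Trim Galore 0.6.6. No source used here says how reads shared by near-identical genes were counted, so Ifit3, Oas1a, the IFITM, GBP and H2 genes are uncertain to that extent. H3K27ac lists come in 2 sets with different layouts, and KO and WT were compared within a set. The 12 input libraries were not used here.

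Counts were scaled by TMM and fitted with a mean per group over all 12 libraries by edgeR 4.0.16 (quasi-likelihood) in R 4.3.3, on the 17494 genes kept by filterByExpr, with Benjamini-Hochberg adjustment over all of them and a threshold of 0.05. SE is the log2 difference over the root of F. CPM use TMM library sizes. A count of 0 allows up to 3 counts, which covers counting error only. The fit was also run on simulated counts that varied less between libraries than these data. That run therefore does not show how the test performs here. Members and gene lists were chosen with earlier results of these data known. Values in every library are given for members called in a comparison, those with the highest mean or largest average log2 difference in their role, and those with no read in a whole group. Others are said to be named after their values were seen. In total 55141 gene IDs were paired with a symbol, and starts and promoter windows came from RefSeq GRCm38.p6 (17492 genes with a start). Alternatives were RLE scaling, no filter, DESeq2 1.42.0, limma-voom 3.58.1 with and without a correlation, a replicate block, leaving out each library, fewer populations, summed populations and other peak windows.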

Additional observations from a re-analysis of the deposited data

How the results depend on the processing

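For the average KO minus WT comparison, called members numbered 1 in the fit described and 8 without a filter, 6 with DESeq2, 0 with limma-voom with a correlation, 0 with pBCSP and BCSP only, 0 with counts summed over populations, and 0 to 18 with 1 library left out. Over all genes 205 became 1882, 1693, 44, 0, 0 and 0 to 6147, and 462 with limma-voom. In SSC, called members were 3 without a filter (1.21% of genes), 3 with DESeq2 (0.995%) and 0 to 16 with 1 library left out, 16 being without SSC KO replicate 1 (30.7%). In pBCSP 1 was called without a filter (0.799%), and in BCSP 1 without a filter (1.04%) and 1 with DESeq2 (0.703%). The test between populations gave 0 to 6 with 1 library left out, 6 being without SSC KO replicate 1 (10.8%). For the WT contrasts, the WT libraries alone gave 3 for BCSP minus pBCSP (1.67% of genes called higher) and 4 for BCSP minus SSC (2.85%), and no filter and DESeq2 gave 1 each for BCSP minus SSC (0.756% and 0.44%). Replicate numbers were not shown to pair KO with WT libraries, whose deviations correlated at 0.01, -0.02 and -0.08. Libraries with the same number did deviate together across populations within a genotype, at 0.28 to 0.49. A replicate block gave 1 member (141 genes) for the average. In the WT libraries alone a block, also added after seeing the data, gave 2 for pBCSP minus SSC, 19 for BCSP minus pBCSP and 18 for BCSP minus SSC, beside 2.55%, 7.48% and 7.65% of genes called higher. The sign of the average turned for Bst2 with limma-voom with or without a correlation (-0.02 in both) and between -0.43 and 0.47 with 1 library left out, for Oas1a in pBCSP and BCSP only (-0.08) and between -0.06 and 3.3, and for Ifitm2 in pBCSP and BCSP only (-0.27) and between -0.03 and 0.12. With promoters counted once per list, keeping the peaks above the median q gave 7 for H3K27ac over the KO lists in place of 12. For H3K4me1 it gave 39 over the WT lists in place of 60. This setting keeps fewer peaks in every list, so a count can only stay or fall under it. The share of all genes with a peak also fell in each of these lists, for H3K4me1 in pBCSP WT from 65.7% to 52.2%. Ifi27 kept its sign in all 20 alternatives (1.02 to 1.38 log2 units) and its call in 8. Depth limits members under about 1 CPM, where a count of 0 allows up to 0.133 to 0.208 CPM.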

Other observations

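Socs3, the feedback inhibitor of JAK-STAT signalling, is described here because of its values. It had 1200 and 27.1 CPM in SSC KO, against 1560 and 1030 CPM in SSC WT. It had 1320 and 25.3 CPM in pBCSP KO, against 999 and 913 CPM in pBCSP WT, and 1210 and 161 CPM in BCSP KO, against 1250 and 1170 CPM in BCSP WT. The second KO replicate was low in each of the 3 populations, and the average log2 difference was -0.8 ± 0.95 (edgeR adjusted p = 0.669).

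Lgals3bp, a secreted glycoprotein induced by interferon in human cells and also chosen after its values were seen, had 75.0 and 80.9 CPM in BCSP KO, against 65.5 and 101 CPM in BCSP WT. In SSC it had 35.3 and 35.4 CPM in KO, against 21.6 and 14.3 CPM in WT, and in pBCSP 48.7 and 40.2 CPM in KO, against 25.2 and 24.1 CPM in WT. In each genotype its BCSP values were above those of the other 2 populations.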
